A study of Mus musculus with 2 samples.

Results

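The genes that build and remodel the cytoskeleton of neurons were examined in DNase-seq data from mouse cortex. They are Nefl, Nefm, Nefh, Ina, Map2, Map1b, Tubb3, Tuba1a, Stmn2 and Gap43, chosen by name for what they are known to do, and they make up 10 of the 21938 protein-coding genes and of the 55413 genes of all kinds in the GENCODE annotation of mm10. The left cerebral cortex was taken from female mice of the B6CASTF1/J strain, an F1 hybrid, at an age of 36 days, with no treatment named in the labels. There were 2 mice and 1 library from each, numbered replicate 1 and 2 by the labels, which list the animals under 1 donor entry with separate numbers. Both belong to 1 group, no second condition exists, and the labels name neither pooling of animals nor sorting of cells. The data are therefore described without tests, and the spread is that between 2 libraries.

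DNase-seq cuts chromatin with the nuclease DNase I, which reaches DNA that is not wrapped in stable nucleosomes, and the cut sites pile up at active promoters, enhancers and insulators. Within such open stretches a bound protein can shield a few bases, which is called a footprint. Neurons fill their axons with neurofilaments, polymers of light, medium and heavy chains and internexin-alpha that set axon calibre. Their microtubules are made of alpha- and beta-tubulin and are stabilised by proteins such as MAP2 in dendrites and MAP1B in growing axons. Stathmin 2 binds tubulin and GAP-43 is a membrane protein of the growth cone, and both are long used as marks of axon growth.

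Sequences at 4 of the promoters and 4 other accessible regions are shown first, because the values below refer to them. The promoter table from RefSeq on GRCm38.p6 (mm10) held 5 of the 10 genes, Ina, Map2, Map1b, Tubb3 and Tuba1a. Each of these 5 promoters, which span 300 bp, held the GC box GGGCGG, the core of the sites bound by SP1 and its relatives, on either strand, against 47.8% of 20150 promoters. For the genes not in that table, the highest accessible region near a start held a GC box in Nefl, Nefm and Nefh, but not in Stmn2 and Gap43. Those regions differ in length from the 300 bp promoters. Below, the part upstream of both the RefSeq and the GENCODE start is printed 5′ to 3′ on the strand of the gene, with GC boxes in capitals. In Map1b the capitals also mark a TATAAA, and in Ina the first run of capitals holds a GC box that overlaps a match to the EGR motif GCGNGGGCG.
Map2 promoter, chr1:66175079-66175272, plus strand: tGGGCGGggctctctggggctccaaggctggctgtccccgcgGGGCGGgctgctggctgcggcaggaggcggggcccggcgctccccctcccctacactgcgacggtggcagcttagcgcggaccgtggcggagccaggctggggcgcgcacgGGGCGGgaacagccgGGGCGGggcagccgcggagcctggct
Map1b promoter, chr13:99516603-99516852, minus strand: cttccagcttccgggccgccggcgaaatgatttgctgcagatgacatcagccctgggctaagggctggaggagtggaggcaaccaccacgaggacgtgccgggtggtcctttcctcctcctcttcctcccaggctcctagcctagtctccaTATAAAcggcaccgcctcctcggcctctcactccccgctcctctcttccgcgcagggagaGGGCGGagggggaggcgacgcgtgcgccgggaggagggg
Ina promoter, chr19:47014431-47014680, plus strand: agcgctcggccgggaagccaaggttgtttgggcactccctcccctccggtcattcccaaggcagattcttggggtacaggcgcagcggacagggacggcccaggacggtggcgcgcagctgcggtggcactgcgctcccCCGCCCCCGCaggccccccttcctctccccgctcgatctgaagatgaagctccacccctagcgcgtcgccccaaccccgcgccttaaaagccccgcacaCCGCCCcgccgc
Tubb3 promoter, chr8:123411303-123411423, plus strand: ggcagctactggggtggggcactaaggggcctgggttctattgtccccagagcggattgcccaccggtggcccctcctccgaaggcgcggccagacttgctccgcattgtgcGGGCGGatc

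The Map2 stretch held 4 GC boxes, and footprints of both libraries met the one nearest each end of it. In Map1b the GC box was met by a footprint in both libraries and the TATAAA in neither. In Ina the GC box that overlaps the EGR match was met in both libraries and the one nearer the start in neither. The single GC box of Tubb3 was met in replicate 2 alone. Matches are descriptions of letters and do not show which protein was bound.

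The other 4 sequences are accessible regions called in both libraries, each holding a match to a longer motif in capitals. The region upstream of Nefm holds the core of RE1, the element read by the neuronal gene silencer REST. The region near the internal start of Gap43 and the one downstream of Tubb3 hold a match to CTCF, the insulator protein. The intron region of Gap43 holds the palindromic X-box of RFX factors.
Nefm upstream region, chr14:68125631-68125796, minus strand: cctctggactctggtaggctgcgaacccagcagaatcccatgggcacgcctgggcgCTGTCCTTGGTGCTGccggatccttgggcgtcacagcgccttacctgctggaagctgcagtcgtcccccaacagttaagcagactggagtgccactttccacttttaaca
Gap43 internal start region, chr16:42276521-42276740, minus strand: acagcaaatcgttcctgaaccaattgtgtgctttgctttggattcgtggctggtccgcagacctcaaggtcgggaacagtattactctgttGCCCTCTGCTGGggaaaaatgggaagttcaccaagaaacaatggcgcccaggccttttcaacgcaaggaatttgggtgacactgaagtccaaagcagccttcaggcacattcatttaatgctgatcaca
Gap43 intron region, chr16:42269368-42269560, minus strand: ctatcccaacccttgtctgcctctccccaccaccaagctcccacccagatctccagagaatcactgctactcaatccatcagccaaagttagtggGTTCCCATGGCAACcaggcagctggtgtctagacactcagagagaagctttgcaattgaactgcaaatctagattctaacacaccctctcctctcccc
Tubb3 downstream region, chr8:123422541-123422712, plus strand: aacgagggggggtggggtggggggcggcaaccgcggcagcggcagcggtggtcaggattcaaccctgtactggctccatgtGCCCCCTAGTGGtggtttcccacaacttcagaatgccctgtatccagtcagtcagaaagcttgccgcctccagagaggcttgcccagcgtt

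Both CTCF matches printed here and the RFX match were met by a footprint in each library, and the RE1 core by none. CTCF matches not printed, in the highest promoter region of Nefl and in a promoter region of Nefm, were met by no footprint in either library. The RE1 core was found in 0.0655% of all 48886 regions called in both libraries (central 200 bp, both strands) and the RFX match in 0.53%, while the CTCF match was in 12.9%. In the same central windows of the 37 such regions around the 10 genes, 1 held RE1, 1 held RFX and 3 held CTCF.

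All 10 genes had a promoter peak in both animals, but that of Gap43 lies near the start of an internal noncoding transcript alone. A promoter peak means here that a region with a deposited peak of each library came within 1 kb of any annotated start of the gene. Under the same rule 61.1% of all protein-coding genes had one, 13401 genes in all. The height of a peak is the authors' own signal value, whose normalization is not stated. Heights below 1 advance in equal steps, of size 0.00608 in the list of replicate 1 and 0.00561 in that of replicate 2, from which no value departs by more than 0.000583 of a step. If 1 step were 1 cut, counting alone would give the promoter heights of the 10 genes a relative error of 2.76% to 6.05%. In bulk tissue a lower height from fewer cells of a type and one from less access per cell cannot be told apart.

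Their promoter peaks were mostly lower than those of other genes with a promoter peak. For Gap43 the height used is that of the region near its internal start. The median height over the 10 genes was 3.25 in replicate 1 and 2.26 in replicate 2, against 4.10 and 2.93 over all 13401 genes. Tuba1a and Tubb3, 2 of the 10, exceeded the all-gene median in both libraries, where 45.0% of genes did. Nefh did so in replicate 2 alone. The other 7 were below the median in both. The share of all genes below both medians was not counted, so this count alone cannot be read as high. Tuba1a was the highest in each library and Ina the lowest in each. Between these 2 genes, the libraries differed in part in their order. Nefh was above Tubb3 in replicate 2 alone, and Nefm above Stmn2 in replicate 1 alone. Tubb3 was above Gap43 and Stmn2 in both.

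**Figure D1:**
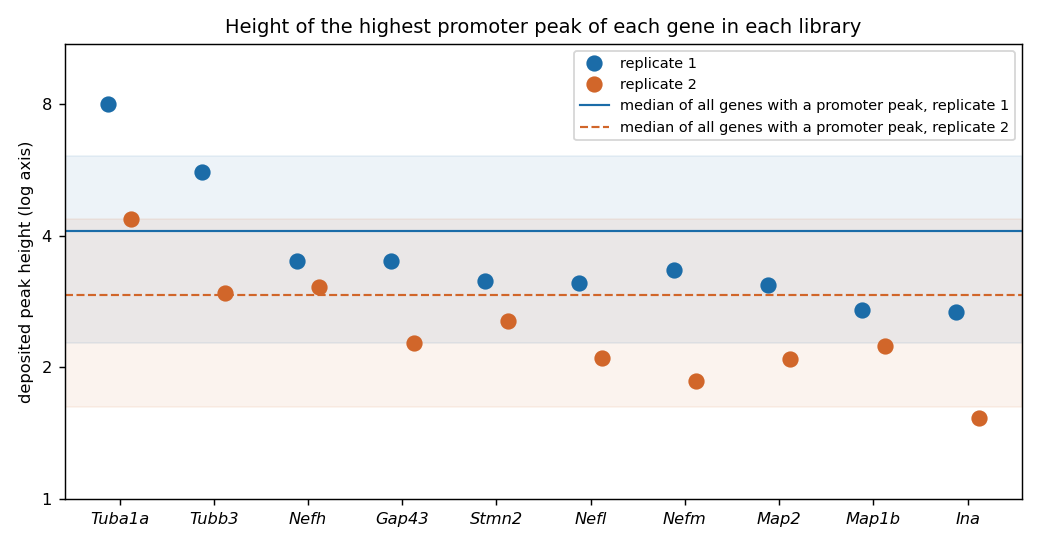
Deposited height of the highest promoter peak (log axis) of each of the 10 genes in replicate 1 and replicate 2. Lines are the medians over all 13401 genes with a promoter peak (4.10 and 2.93) and shaded bands the middle 50% of genes in each library. Tuba1a stands above both medians, while 7 genes lie below the median of each library, a share not counted over all genes.

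The neurofilament genes carried wide accessible stretches around their starts. Nefl, the light chain (ENSMUSG00000022055.7, chr14:68083863-68089095, plus strand), had a promoter height of 3.12 in replicate 1 and 2.10 in replicate 2. Its highest region, chr14:68083701-68084660, was 960 bp wide, where the median highest promoter region of all genes was 280 bp. Its centre lay 318 bp inside the gene. A second promoter region centred 978 bp inside had heights of 1.28 and 0.97. The highest shared region outside the promoter lay 15882 bp upstream (chr14:68067881-68068080), with 2.71 in replicate 1 and 1.39 in replicate 2, close to the promoter itself in replicate 1.

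Nefm, the medium chain (ENSMUSG00000022054.11, chr14:68082590-68124846, minus strand), lies on the same chromosome and its record overlaps Nefl, because 1 annotated transcript ends in an exon at Nefl. The promoter region of Nefm (chr14:68124541-68125020, 480 bp) had a height of 3.34 in replicate 1 and 1.86 in replicate 2. A region in the exon 1165 bp inside the gene (chr14:68123521-68123840) was nearly as high, with 3.16 and 1.76. The region between them, centred 555 bp inside, was lower at 1.37 and 1.12. The upstream region with the RE1 core, 868 bp before the start, had heights of 1.08 and 0.724. In all 9 shared regions fell in the window of Nefm, which is the gene with 20 kb on each side, but 3 of them are also counted for Nefl. That made 1.09 regions per 10 kb, above 91.8% of protein-coding genes.

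Nefh, the heavy chain (ENSMUSG00000020396.8, chr11:4938754-4948064, minus strand), had its promoter peak inside the gene and no shared peak over its annotated start. Its promoter region, chr11:4947061-4947480, was centred 793 bp inside the gene, in the first exon, and reached 3.51 in replicate 1 and 3.05 in replicate 2. No shared region lay within 300 bp of the annotated start. A centre more than 500 bp from the nearest start was found for 7.31% of genes with a promoter peak. Upstream, shared regions at 1784 bp (0.857 and 0.589) and 6084 bp (chr11:4953962-4954333, 0.942 and 0.791) were lower. In replicate 2 alone, small peaks were called 850 bp (0.488) and 1417 bp (0.454) before the start. All 51 and 40 of their bases had a false discovery rate under 0.05 in replicate 1 too.

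Ina encodes internexin-alpha (ENSMUSG00000034336.3, chr19:47014698-47025327, plus strand) and had the lowest promoter of the 10, with 2.68 in replicate 1 and 1.53 in replicate 2. The region (chr19:47014541-47015610) was also the widest, at 1070 bp, and lies within 1 kb of a start of the neighbour Nt5c2, so the height cannot be assigned to 1 gene. A region in the last exon, 10433 bp from the start (chr19:47025021-47025240), had heights of 1.78 and 0.937. A peak in the intron 1963 bp inside was called in replicate 1 alone, at 1.43, and no base of it was under the rate threshold in replicate 2.

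The width of these stretches was measured in the deposited false discovery rates (FDR) for the local cut rate, which list positions with a rate under 0.05. This measure was chosen after the profiles were seen. In the 1500 bp downstream of the gene start, Nefl had 1445 such bases in replicate 1 and 1453 in replicate 2, Nefm 1403 and 1422, and Nefh 1431 and 1436. The medians over 12432 genes with a shared peak within 1 kb of that start were 684 and 705. The percentiles of the 3 neurofilament chains among those genes ran from 92.6 to 94.5 over both libraries. Map1b had 1287 and 1237 bases, Ina 1118 and 1089, and Stmn2 1059 and 1140, all above both medians. Tubb3 (994 and 924) and Tuba1a (919 and 897) were above them too. Map2 (635 and 778) was near the median. Gap43 (605 and 742) was below the median in replicate 1 and above it in replicate 2. It is not among the 12432 genes, since it has no shared peak within 1 kb of that start. On the upstream side, where the medians were 407 and 434 bases, the same 3 chains were wide as well, with 646 and 1209 in Nefl, 943 and 908 in Nefm and 838 and 1138 in Nefh. Their upstream percentiles ran from 75.6 to 95.6, and in replicate 2 those of Nefl (95.6) and Nefh (94.5) were above the downstream ones (93.6 and 93.0). Tuba1a (728 and 722) and Map1b (592 and 635) were above the upstream medians too. In replicate 1 Tuba1a exceeded Nefl. Ina (365 and 218), Stmn2 (295 and 288), Map2 (390 and 400) and Gap43 (0 and 6) were below the upstream medians. Tubb3 was above in replicate 1 (444) and below in replicate 2 (213).

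**Figure D2:**
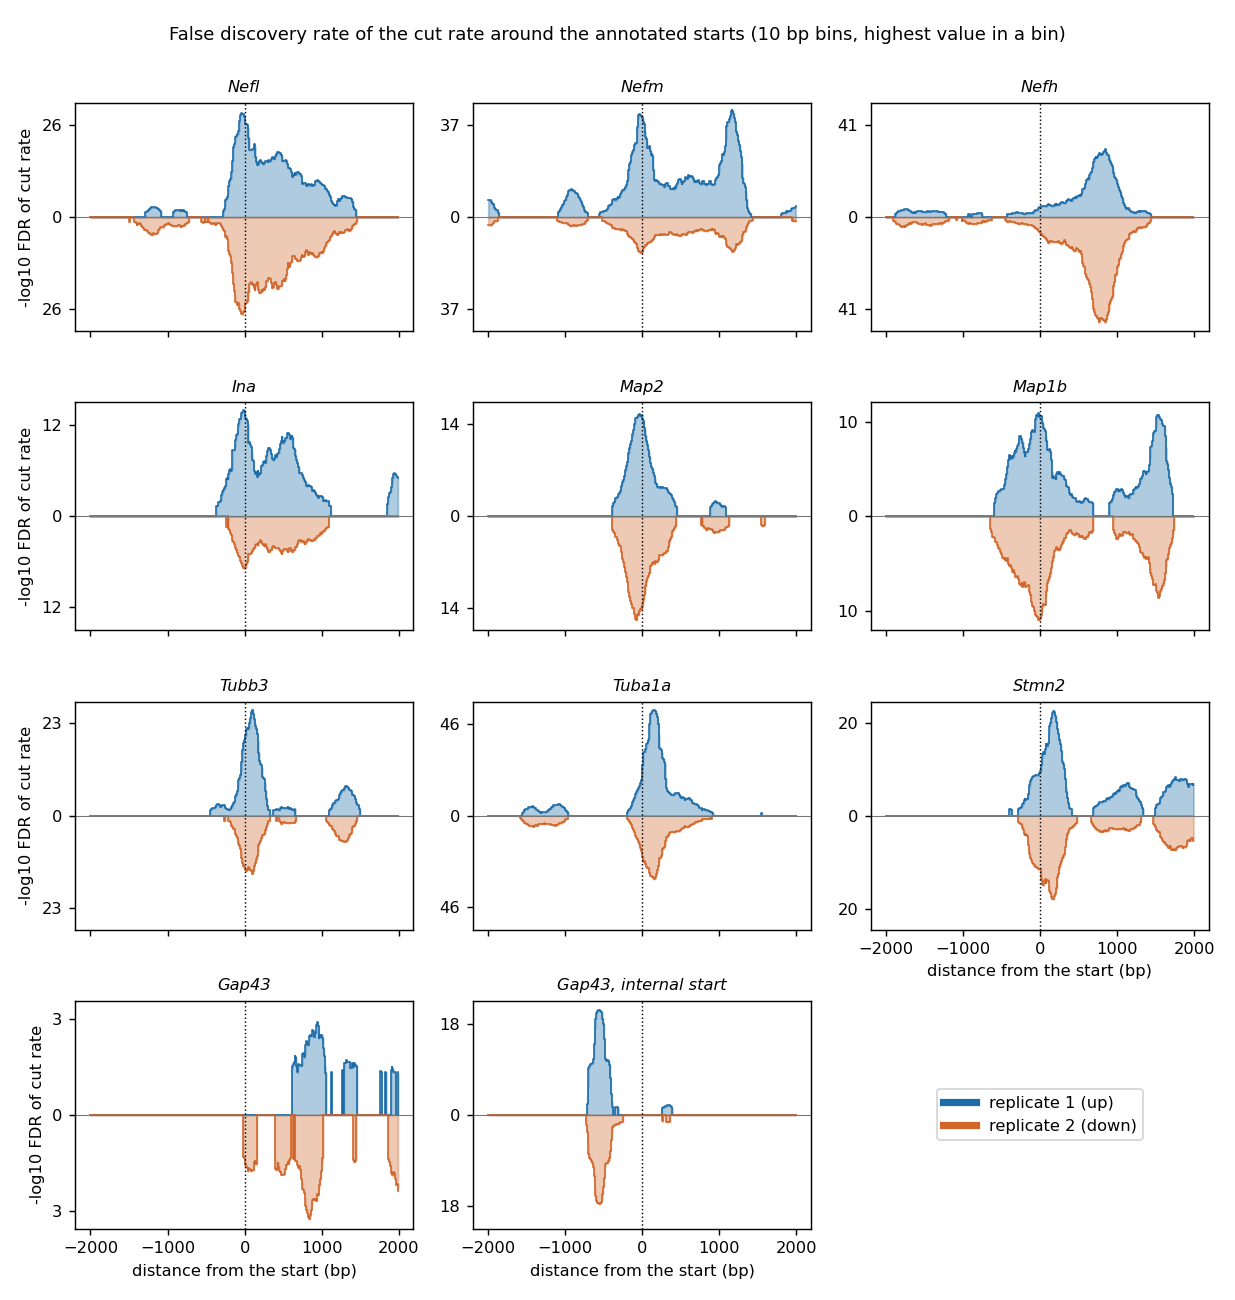
Negative log10 of the deposited FDR of the cut rate (y axis, highest value per 10 bp, separate scale per panel) against distance from the annotated start in bp, with replicate 1 upwards and replicate 2 downwards. Nefl and Nefm are covered from the start to beyond 1 kb inside, the Nefh maximum lies inside the gene, and the Gap43 start has low values of at most 2.9 and 3.3 while the region upstream of its internal start reaches 20.6 and 17.6.

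The microtubule-associated genes are long and held few regions for their length. Map2 (ENSMUSG00000015222.17, chr1:66175273-66442583, plus strand) has 23 annotated starts. Its highest promoter region, chr1:66175041-66175380, sits at the start of the gene record, with heights of 3.08 and 2.09 in replicates 1 and 2. A region at an internal start 146708 bp inside (chr1:66321841-66322120) was almost as high, with 2.71 and 1.99. A further one at 211662 bp was lower, with 1.14 and 0.954. The protein-coding starts at 76374 and 76389 bp had no peak and not a single base under an FDR of 0.05 within 1 kb in either library. Away from any start, an intron region at 148396 bp (chr1:66323577-66323760) had 1.25 and 0.769 and another at 213533 bp 0.949 and 0.914, so the libraries ordered them differently. In total 5 shared regions gave Map2 0.163 per 10 kb, above 28.7% of protein-coding genes.

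Map1b (ENSMUSG00000052727.6, chr13:99421446-99516540, minus strand) had a promoter height of 2.71 in replicate 1 and 2.24 in replicate 2. Its region, chr13:99516401-99516980, is shared with the start of the divergent noncoding gene Gm26559. An intron region 1499 bp inside (chr13:99514881-99515200) had 2.74 and 1.68, so in replicate 1 it was as high as the promoter. These were the 2 shared regions, against 7 called in 1 library alone. In replicate 1 alone a region of 31 bp was called at an internal start 68935 bp inside, at 1.31, although all 31 bases had an FDR under 0.05 in replicate 2 too. In a stretch of 6702 bp within the gene, chr13:99437338-99444039, replicate 2 had 6 peaks with heights from 0.264 to 0.561, and a further 6 in the longer deposited list. Replicate 1 had none in either list. The stretch held 14 footprints and 3182 bases under an FDR of 0.05 in replicate 2, with a highest negative log10 rate of 9.6, against 0 footprints and 0 bases in replicate 1. By height these 6 peaks were among the lower ones of their list, at percentiles from 3.13 to 21.2. The source of this difference was not tested.

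The tubulin genes had the highest promoters of the 10 in replicate 1. Tuba1a, an alpha-tubulin of postmitotic neurons (ENSMUSG00000072235.6, chr15:98949837-98953703, minus strand), reached 8.01 in replicate 1 and 4.38 in replicate 2, above 89.6% and 74.9% of genes with a promoter peak. The region, chr15:98953441-98953700, was only 260 bp wide, and it also holds a start of the overlapping gene model Gm49450. The same window took in the promoter of the paralog Tuba1b, with 7.13 and 4.27 at one region (chr15:98933901-98934120) and 5.12 and 3.15 at its neighbour. Those are the highest regions outside the Tuba1a promoter. A region 1276 bp upstream had 1.23 and 1.05, and one 18386 bp upstream 1.09 and 0.999. With 5 shared regions in a short window, Tuba1a had the highest density, 1.14 per 10 kb, above 92.6% of genes.

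Tubb3, the neuronal class III beta-tubulin (ENSMUSG00000062380.4, chr8:123411424-123422015, plus strand), had 5.61 in replicate 1 and 2.96 in replicate 2. Its promoter region, chr8:123411361-123411640, was 280 bp wide and sat over the start. An intron region centred 1292 bp inside, whose edge is within 1 kb of a start, had 2.00 and 1.68. The region with the CTCF match 11203 bp from the start (chr8:123422541-123422712), near the start of Def8, had 2.42 and 1.92. A peak at the start of the neighbour Mc1r was called in replicate 1 alone, at 2.55, although 162 of its 200 bases had an FDR under 0.05 in replicate 2 too.

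The growth-associated genes differed in where they were open. Stmn2 (ENSMUSG00000027500.10, chr3:8509360-8561606, plus strand) had a promoter region over its start, chr3:8509241-8509660, with 3.16 in replicate 1 and 2.55 in replicate 2. Behind it followed a region at 957 bp (0.997 and 0.684) and one of 980 bp in the intron at 2011 bp (chr3:8510881-8511860, 1.52 and 1.31). That intron region held 11 footprints in replicate 1 and 14 in replicate 2. The promoter region, only 420 bp wide, held 6 and 4, and these counts are not adjusted for width. Peaks at 4461 bp (1.28) and 59687 bp (0.909) were called in replicate 2 alone, and 1 peak 11151 bp upstream (0.638) in replicate 1 alone. In the library without the peak, 129 of 160, 61 of 61 and 127 of 127 bases had an FDR under 0.05, in that order.

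Gap43 (ENSMUSG00000047261.9, chr16:42248442-42340651, minus strand) had its promoter peak at an internal start, not at the start of its protein-coding transcript. The region with the CTCF match printed above, chr16:42276521-42276740, reached 3.51 in replicate 1 and 2.28 in replicate 2. It lies 64020 bp inside the gene and 559 bp before the start of an annotated noncoding transcript. At the protein-coding start itself neither library had a peak in the shorter list. The longer list held 1 region called in both within 1 kb, centred 839 bp inside, with low heights of 0.572 and 0.628. In replicate 2 alone it also held peaks centred 477 bp inside (0.466) and 74 bp inside (chr16:42340492-42340662, 0.46), the latter over the start itself. The highest negative log10 FDR within 1 kb of that start was 2.9 in replicate 1 and 3.3 in replicate 2, against 20.6 and 17.6 in the region near the internal start. Counting the start of the gene record alone, 56.7% of protein-coding genes had a promoter peak in both libraries, and Gap43 was the single one of the 10 without. Further shared regions were intronic, at 84750 bp (chr16:42255721-42256080, 1.78 and 1.21) and, with the RFX match, at 71187 bp (0.906 and 0.898).

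Around the 10 genes 57 regions were called, 37 of them in both libraries, 7 in replicate 1 alone and 13 in replicate 2 alone. The shared part was 64.9%, against 58.6% of all 83423 regions of the genome. Of the 13 in replicate 2 alone, 6 are those in Map1b. Of the 37 shared regions, each counted once, 17 were promoter regions, 6 lay in introns, 2 in exons, 7 upstream and 5 downstream, and 3 were near the start of a neighbour only. The density per 10 kb ranged from 0.148 in Map1b to 1.14 in Tuba1a. Its median was 0.593, against 0.341 over all protein-coding genes, and Map2, Map1b, Gap43 and Stmn2, whose records are the longest of the 10, were below that value. The lists of related genes given below had median densities from 0.441 (microtubule-associated and stathmin genes) to 0.661 (other tubulins). Bases under an FDR of 0.05 made up 1.41% to 7.49% of the windows in replicate 1 and 1.48% to 9.12% in replicate 2, lowest in Map2 and highest in Tuba1a. Their medians were 4.44% and 4.25%, against 2.69% and 2.83% over all protein-coding genes. All of the 10 genes had a promoter peak, against 61.1% of all protein-coding genes. Neither the density nor this share was compared among genes with a promoter peak alone.

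**Figure D3:**
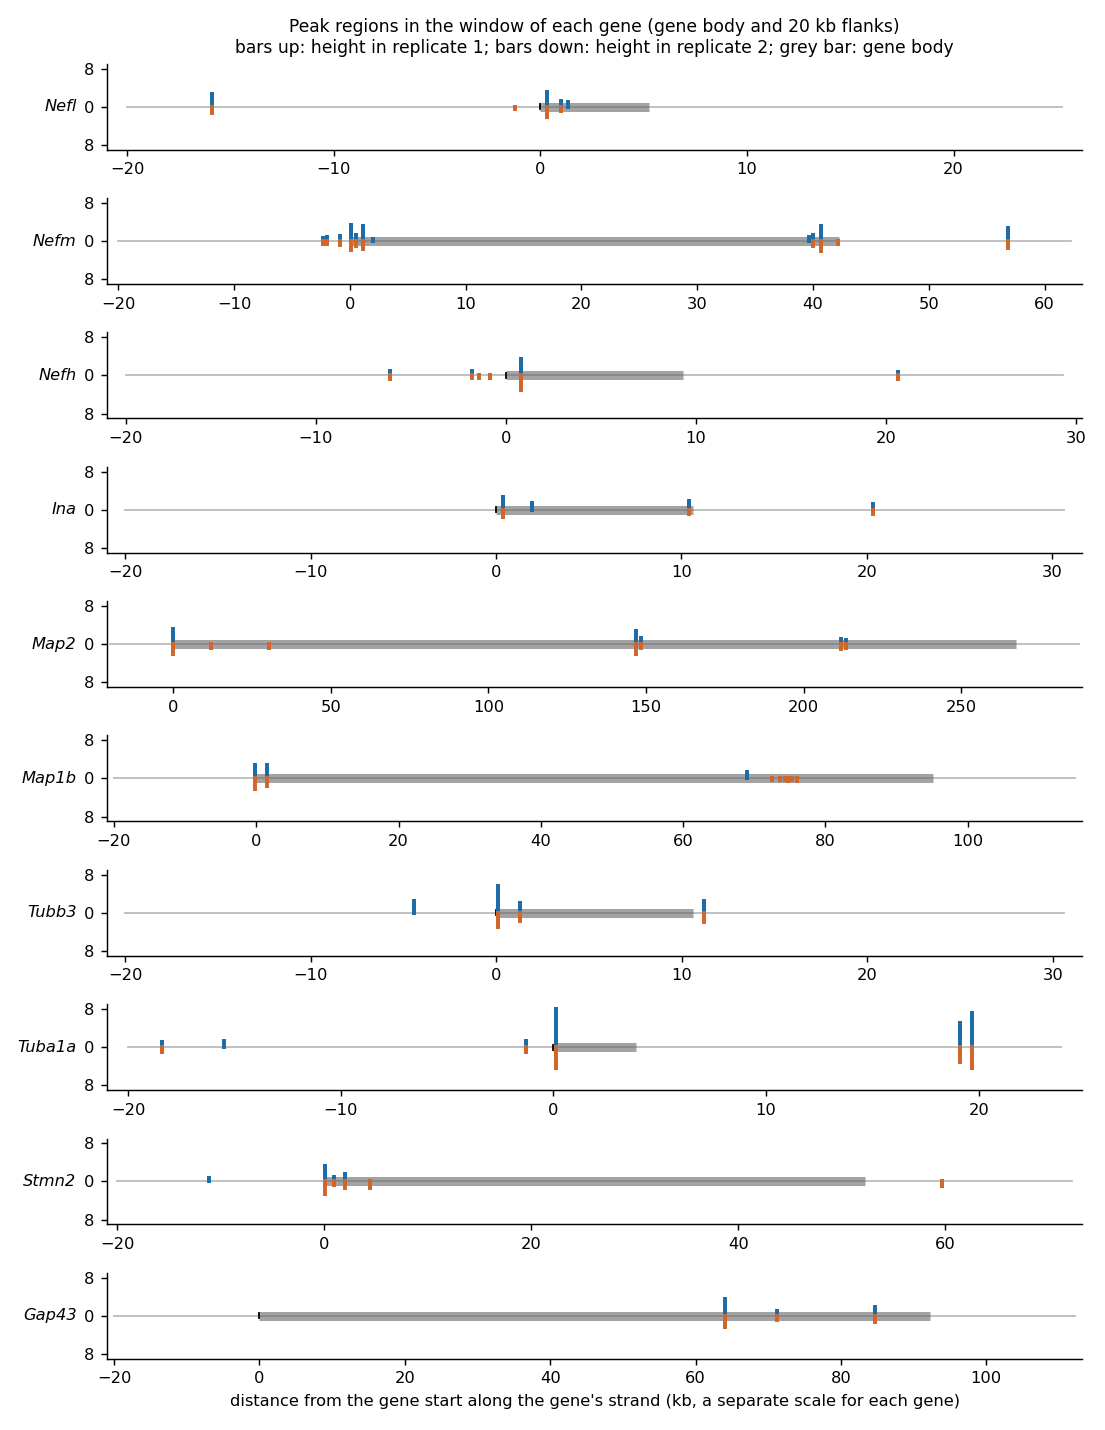
Regions in the window of each gene, placed by distance from the gene start in kb along its strand, with a separate scale per gene. Bars upwards give the deposited height in replicate 1, bars downwards that in replicate 2, and grey bars the gene body. Regions cluster at the start in Nefl, Nefm and Stmn2, lie only deep inside Gap43, and form a group in replicate 2 alone in Map1b.

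Footprints numbered 273 in replicate 1 and 284 in replicate 2. They were 7 to 46 bp wide in replicate 1 (median 10) and 7 to 47 bp in replicate 2 (median 9). Of them, 47.6% in replicate 1 and 47.9% in replicate 2 overlapped a footprint of the other library, close to 44.2% and 46.2% genome-wide. Tuba1a had the most for its window, 37 and 39, some of them at the promoter of Tuba1b. Nefl had 17 and 20, all of which are counted again among the 48 and 43 of Nefm. Nefh had 30 in each library. The libraries parted in Ina, with 25 in replicate 1 and 14 in replicate 2, and in Map1b, with 21 and 47. Within the highest promoter region itself, Ina had 15 and 12, Nefl 14 and 12, Nefh 10 and 12, and Map1b 6 and 12.

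The heights were compared between the animals as the log2 ratio of replicate 2 over replicate 1, centred on the median over all regions with 1 peak in each library (-0.43). Over the promoters of all genes this ratio had a median of -0.05 and an SD of 0.33. The neuronal genes ranged from -0.49 in Tubb3 to 0.22 in Nefh, with a median of -0.17. Tuba1a (-0.44), Nefm (-0.42), Ina (-0.38) and Tubb3 lay more than 1 SD towards replicate 1, which makes 4 of 10, where 19.1% of genes with a promoter peak did. None of the 10 lay as far towards replicate 2, where 10.8% did. Nefl (-0.15) and Nefm sit side by side and differed from each other in this ratio by less than that SD. With 1 library per animal, differences between animals and between libraries cannot be told apart.

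The promoters also differed in base composition, a measure added after the other values were known. CpG dinucleotides were counted relative to what the C and G content of the region would give. That ratio was 1.05 in Nefh, 1.03 in Ina, 0.994 in Nefl and 0.942 in Nefm, which put the 4 filament genes at percentiles from 73.6 to 90.6 among the highest promoter regions of 13401 genes. The median of those was 0.829. Tubb3 (0.838) and Map2 (0.781) were near it, and Tuba1a (0.673) and Map1b (0.661) were lower. Stmn2 (0.46) and Gap43 (0.461) had the CpG-poorest promoters, at percentiles 8.37 and 8.43, and for Gap43 this is the region near the internal start.

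Among the 15 motifs searched, 89 matches fell in the full length of the 37 regions, of which 30 were met by footprints in both libraries, 15 in one and 44 in neither. Footprints at matches were not counted over all shared regions, so these numbers cannot be read as high or low. To set the matches themselves beside all shared regions, they were counted in the central 200 bp of each. There the GC box was in 11 of the 37 and in 27.5% of all shared regions. The E-box CAGCTG was in 8 (16.9% of all) and the E-box CAGATG, a core often read by NEUROD factors, in 4 (17.9%). CCAAT was in 6 (22.9%), the NRF1 motif in 2 (3.12%) and AP-1 (TGANTCA) in 1 (7.93%). The CRE, the ETS motif CCGGAAG and the octamer were in none of these 37 central windows and in 1.28%, 5.30% and 0.984% of all. Over the full length of the regions the counts were 16 for the GC box, 15 for CAGCTG, 6 for CAGATG, 9 for CCAAT, 3 for AP-1 and 1 for ETS, in the Map1b promoter. Such shares over so few regions are descriptions only.

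Relatives of the 10 genes were counted by the same rule, beside the background of 61.1%. Of 18 other tubulin genes, 13 (72.2%) had a promoter peak in both libraries. The highest were Tubg1 (11.1 and 6.33), which nucleates microtubules, Tubd1 (7.96 and 6.77) and Tubb5 (7.47 and 4.66). Tuba1c, Tuba3a and Tuba3b were among the 5 without. Tuba1a was thus as high as Tubd1 in replicate 1 and lower in replicate 2.

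Of 16 other intermediate filament genes, 10 (62.5%) had one, close to the background of 61.1%. Synm, the synemin gene (7.84 and 3.37), and the nuclear lamin genes Lmna (6.15 and 3.74) and Lmnb1 (4.85 and 3.21) were the highest, above all 4 neuronal filament genes in both libraries. The keratin genes Krt14, Krt18 and Krt19 were among the 6 without. Prph, whose product peripherin pairs with neurofilaments mainly in peripheral neurons, had a peak in replicate 1 alone, and it is named here after its values were seen.

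**Figure D4:**
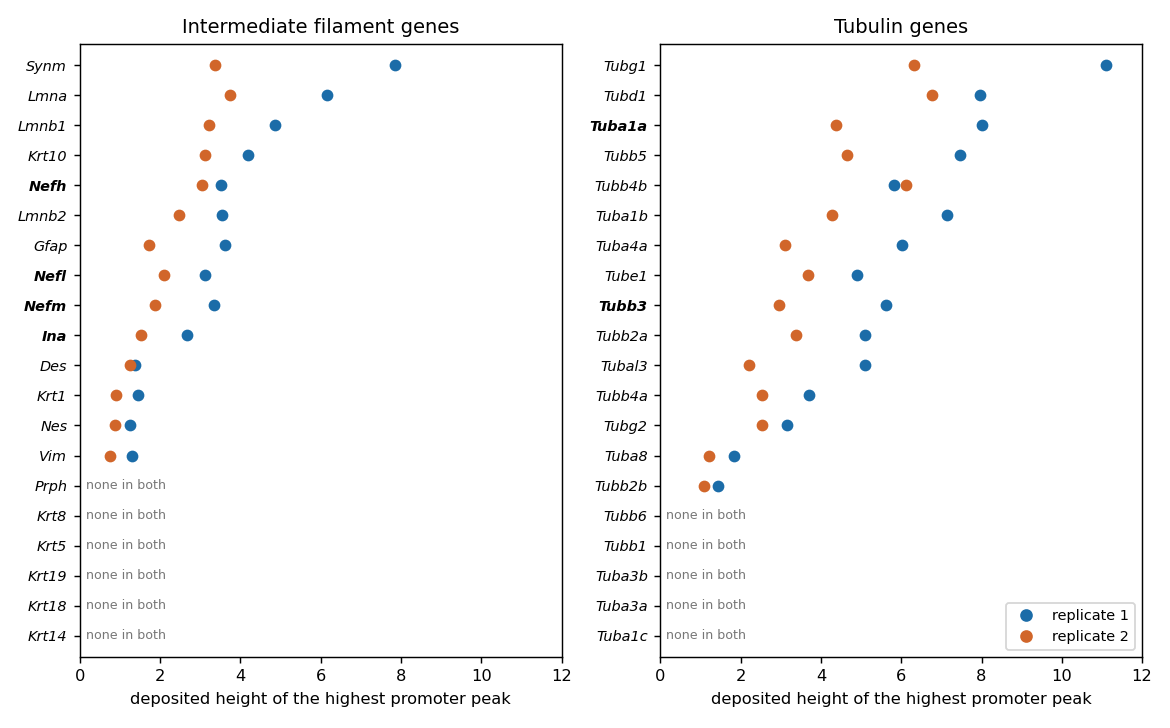
Deposited height of the highest promoter peak (x axis) of intermediate filament genes and of tubulin genes, with the genes this text is about in bold and 1 point per library. "None in both" marks genes without a region called in both libraries within 1 kb of a start. The 4 neuronal filament genes lie below Synm, Lmna and Lmnb1, and Tuba1a is exceeded by mean height only by Tubg1 and Tubd1 among the tubulins drawn.

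Microtubule-associated and stathmin genes had a promoter peak in 16 of 17 cases, with median heights of 5.4 and 3.78. The end-binding genes Mapre1 (8.71 and 7.12) and Mapre2 (8.71 and 6.55) and Map4 (7.76 and 6.21) led, all higher than Map2 and Map1b in both libraries. Dcx, the doublecortin gene of migrating young neurons, had a peak in replicate 2 alone. Growth cone and axon growth genes had one in 16 of 17, with medians of 3.76 and 2.41. The highest were Dpysl2 (8.24 and 6.48), Klf7 (7.53 and 5.01) and Ncam1 (6.43 and 4.44), and Sprr1a, a gene known from regenerating axons, had none. All 14 motor and membrane skeleton genes had one, led by Sptan1 (7.5 and 4.62), Kif3a (5.80 and 3.98) and Sptbn4 (4.90 and 4.77).

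The labelled tissue was checked against marker genes of cell types. A promoter peak in both libraries was found for 6 of 6 cortical excitatory neuron markers, 2 of 5 interneuron, 4 of 5 astrocyte, 1 of 5 oligodendrocyte, 0 of 5 microglia and 0 of 4 endothelial markers. Of 4 genes each for liver, blood and skeletal muscle, 0, 1 and 1 had one. The deposited lists held 69208 and 69128 peaks with median heights of 1.17 and 0.909 in replicates 1 and 2.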

How the data were processed

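DNase-seq was made from left cerebral cortex of 2 mice, 1 library each, numbered as in the labels. Per the deposited read-me, peaks, FDR cut rates and footprints were made for each library on mm10. The aligner and callers, and the handling of CAST alleles, are not given in the sources read. Peak height is the authors' signal value, without a stated normalization. The deposited rates are p-value-like false discovery rates, listed under 0.05 only. The deposited footprint score is the same in every entry, so only positions were used. Each library has 2 peak lists, and the shorter was used unless the longer is named. Read depth is unknown.

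Peaks of both libraries that overlapped by at least 1 bp were merged into regions. Windows were gene bodies with 20 kb on each side (20000 bp), with GENCODE M21 starts. All values came from Python 3.11.15, numpy 2.4.6, pandas 2.3.3 and pysam 0.24.0, and the overlap steps were tested on simulated data. The members, gene lists, markers and motifs were chosen with earlier results of these data known. Named were all 10 genes, from each list the 3 genes of greatest mean promoter height and, alphabetically, up to 3 lacking a shared promoter peak, each gene's highest promoter region and highest other shared region, and neighbours with a promoter peak in a window. Further regions were named after their values were seen. Alternatives were other peak lists, overlaps, windows, thresholds, centrings and single libraries.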

Additional observations from a re-analysis of the deposited data

How the results depend on the processing

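All 10 genes kept a promoter peak with the longer lists, a reciprocal overlap of at least 50%, peaks above the median height, either library alone and a window of 2 kb. With a window of 500 bp, 9 did (Nefh was lost), and with the start of the gene record alone, 9 did (Gap43 was lost). The 37 shared regions became 63 with the longer lists, 24 with peaks above the median height, 24 in gene bodies alone, 63 with flanks of 50 kb and 49 to 57 in single libraries. For these counts and for the density, a single library gives all of its own peaks, not shared regions. The median density of 0.593 per 10 kb became 0.832 with the longer lists, 0.306 with peaks above the median height, 1.13 in gene bodies, 0.815 with flanks of 10 kb and 0.801 to 0.873 in single libraries. In each of these settings it was above the median of all protein-coding genes under the same setting. That background includes genes without a promoter peak. Footprints, 278.5 per library on average, numbered 182.5 in gene bodies, 424 with flanks of 50 kb, 133 when met in the other library, and 273 to 284 in single libraries. The share of bases under the rate threshold, 4.34%, became 9.26% in gene bodies, 6.26% with flanks of 10 kb, 3.43% under 0.01, 2.73% under 0.001, and 4.25% to 4.44% in single libraries. Smaller windows and stricter thresholds hold fewer features by construction. The median height ratio of -0.17 was -0.60 without centring. No paired analysis was possible because there is 1 group. Depth in reads is unknown, so a missing peak is not shown to be closed chromatin.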
